A study of Mus musculus with 13 samples.

Results

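The genes described here are the 10 core genes of MHC class I antigen presentation: the classical heavy chains H2-K1 and H2-D1, their light chain B2m, the peptide transporter genes Tap1 and Tap2, the loading factor Tapbp, the immunoproteasome subunits Psmb8, Psmb9 and Psmb10, and the transactivator Nlrc5. They were taken by symbol from a deposited table of 53465 genes, and all 10 passed the filter on low values, which asked for a TPM (a length-scaled share of transcripts) of at least 1 in at least 3 libraries. RNA of 3 wild-type (WT) ovaries was compared with RNA of 10 MP tumors, which are ovarian tumors of the EPO-GEMM type, meaning mouse tumors started by electroporating plasmids into the living organ. For MP tumors the left ovary of WT C57BL/6 females aged 8 to 12 weeks received a CRISPR-Cas9 vector against Trp53 together with a MYC transposon and the Sleeping Beauty transposase, and WT ovaries carried neither change. The labels give the same strain, sex and age range for both groups. For the tumor mice the study gives this range as the age at electroporation, with tumors taken at a humane endpoint. The groups may therefore differ in age at sampling. Both groups are labelled as not treated. The mice were immunocompetent, RNA came from whole tumor tissue, and the study describes such tumors as oligoclonal, so each library mixes tumor cells with host cells.

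MHC class I molecules show fragments of a cell's own proteins to CD8 T cells. The proteasome cuts proteins into peptides, the Tap1 and Tap2 proteins pump these into the endoplasmic reticulum, Tapbp (tapasin) holds an empty class I molecule at the pump until a peptide fits, and the heavy chain reaches the surface only with B2m. Interferon gamma raises most of these genes, Nlrc5 is recruited through DNA-binding partners to a shared promoter module built of an X box and a Y box, and loss of the pathway is a known route by which tumors escape T cells.

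The promoters are printed first because the heavy chains and B2m share the module that Nlrc5 acts on. RefSeq promoter sequences (GRCm38.p6) were held for 8 of the 10 genes, and those of Tap2 and Nlrc5 were not among them. The sequences below are the 250 bases before the RefSeq start, read 5′ to 3′ on the strand of the gene. For the divergent genes Tap1 and Psmb9 it is the 225 bases between their RefSeq starts, read on the strand of Tap1. Capitals mark every match, on either strand, to 4 motifs: the Y box core ATTGG, the core of the X2 element TGACG, the interferon-response core GAAA NN GAAA and the kappa B motif GGGNNTTCC.
H2-K1, chr17:34000348-34000597, minus strand: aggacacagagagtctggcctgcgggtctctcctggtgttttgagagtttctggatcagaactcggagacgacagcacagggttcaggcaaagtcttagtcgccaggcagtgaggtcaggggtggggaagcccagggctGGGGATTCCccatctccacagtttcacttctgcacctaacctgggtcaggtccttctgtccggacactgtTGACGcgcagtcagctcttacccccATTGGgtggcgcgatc
H2-D1, chr17:35262844-35263093, plus strand: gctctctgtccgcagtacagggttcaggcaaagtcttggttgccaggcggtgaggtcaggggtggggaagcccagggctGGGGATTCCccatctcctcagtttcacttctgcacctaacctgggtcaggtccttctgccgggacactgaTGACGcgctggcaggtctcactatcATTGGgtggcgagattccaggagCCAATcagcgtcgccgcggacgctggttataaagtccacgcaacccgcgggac
B2m, chr2:122147437-122147686, plus strand: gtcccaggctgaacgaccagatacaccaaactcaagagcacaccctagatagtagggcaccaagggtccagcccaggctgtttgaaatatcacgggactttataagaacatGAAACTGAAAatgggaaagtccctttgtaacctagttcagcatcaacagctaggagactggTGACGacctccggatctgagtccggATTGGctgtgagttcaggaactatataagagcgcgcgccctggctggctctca
Tap1 and Psmb9, chr17:34187331-34187555, plus strand: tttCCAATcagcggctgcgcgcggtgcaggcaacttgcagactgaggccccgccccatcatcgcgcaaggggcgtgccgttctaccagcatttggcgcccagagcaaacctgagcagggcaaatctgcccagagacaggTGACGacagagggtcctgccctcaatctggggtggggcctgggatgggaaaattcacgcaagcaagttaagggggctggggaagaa
Psmb10, chr8:105938393-105938642, minus strand: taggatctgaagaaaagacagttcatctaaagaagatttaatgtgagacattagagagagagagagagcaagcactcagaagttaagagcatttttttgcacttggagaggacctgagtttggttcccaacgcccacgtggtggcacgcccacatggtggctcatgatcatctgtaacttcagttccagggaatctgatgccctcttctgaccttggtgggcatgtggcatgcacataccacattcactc

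In H2-K1, H2-D1 and B2m the X2 core is followed, after exactly 20 bases, by the Y core. This spaced pair, searched on both strands, was present in 25 of 27025 mouse promoters of the same length, 0.0925%, among them these 3. The single cores are common, with the Y core in 34.5% of promoters and in 6 of the 8 genes with a sequence, and the X2 core in 17.9% and in 5 of the 8. The interferon-response core was found in 3.04% of promoters and in B2m alone among the 8, while the kappa B motif was found in 4.88% and in H2-K1 and H2-D1. The Psmb8 and Psmb10 windows held no match to any of them, which says only that these letters are not in these windows. The RefSeq start of H2-D1 lies 364 bases from the start that the deposited table uses, that of Psmb8 474 bases and that of Tapbp 3579 bases, so these windows may not be the ones used in these tissues. In that table Psmb9 overlaps Tap1 by 212 bases, so its start there is also not the RefSeq start at 34187330. The window printed for Tap1 and Psmb9 falls within the Psmb9 gene of that table.

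The table placed 7 of the 10 genes on chromosome 17 (GRCm38), within or beside the mouse MHC. H2-K1 (ENSMUSG00000061232) spans 33996017 to 34000333 on the minus strand, and H2-D1 (ENSMUSG00000073411) spans 35262730 to 35267499 on the plus strand. Tapbp (ENSMUSG00000024308) spans 33915899 to 33929288. Psmb9, Tap1, Psmb8 and Tap2 stand side by side within 34333 bases, from 34181988 to 34216321. The annotated Tap1 and Psmb9 overlap by 212 bases on opposite strands, and the setting for strand in the counting is not given in the sources used here, so reads in the overlap cannot be assigned with certainty. B2m (ENSMUSG00000060802) lies on chromosome 2 from 122147686 to 122153083, Psmb10 (ENSMUSG00000031897) on chromosome 8 from 105935735 to 105938444, and Nlrc5 (ENSMUSG00000074151) on chromosome 8 from 94434356 to 94527272.

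Libraries held 31445004 to 64013840 assigned reads in WT ovaries and 3892690 to 19906507 in MP tumors, worked back from the TPM values. The targeted gene Trp53 was between 80.7 and 85.4 TPM in WT ovaries, at 4.30 to 26.0 TPM in MP1 to MP9 and at 187 TPM in the library labelled MP tumor 10, so the fold changes of the genes called are also given without that library. Library names carry an IGO number whose meaning the labels do not state: all WT ovaries and MP1 to MP3 share one (IGO_10280), MP4 to MP6 another (IGO_10469) and MP7 to MP10 the last (IGO_11445). In MP2, 10 genes took 55.1% of all TPM. Labels do not say that replicates came from separate animals, so P values measure the spread between these samples.

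In WT ovaries B2m had the highest level of the 10 genes and Nlrc5 the lowest. TPM is scaled by gene length, so levels can be ordered between genes. B2m, at 1672 ± 172 TPM (mean ± SD, n = 3), stood above H2-K1 (427 ± 74.4 TPM) and H2-D1 (400 ± 78.1 TPM), whose values overlapped. Tapbp (156 ± 48.7 TPM) and Psmb10 (77.3 ± 12.1 TPM) followed without overlap. Tap2, Psmb8 and Tap1 (28.7 ± 6.98, 21.9 ± 4.55 and 18.3 ± 2.20 TPM) overlapped each neighbour in turn, and stood above Psmb9 (12.0 ± 1.86 TPM) and Nlrc5 (3.34 ± 1.01 TPM). In MP tumors the order by median was the same at both ends, with B2m at 458 TPM and Nlrc5 at 0.236 TPM. Psmb10 moved from position 5 to position 2 with a median of 113 TPM, and its TPM exceeded that of H2-K1 in 6 of 10 MP tumors and in 0 of 3 WT ovaries. The ranges of neighbouring genes overlapped across the MP tumors.

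The comparison of MP tumors with WT ovaries asked whether the class I pathway differs in level between tumor and normal organ. Of the 10 genes, 4 fell (H2-K1, H2-D1, B2m and Nlrc5), 0 rose and 6 did not pass the test, limma on log2(TPM + 1) with Benjamini-Hochberg adjustment over 17277 genes at 0.05. Of all genes tested, 14.3% were called lower and 2.51% higher. The median log2 fold change of the 10 genes was -1.70 and that of all tested genes -0.58, so a value near -0.58 is the typical one here. After median-of-ratios scaling, which brings the median of all genes to -0.02, the same 4 genes were called, where 10.9% of all genes were lower and 7.47% higher, with a median of -1.10 over the 10. Over all genes that scaling turned the split of 433 higher and 2463 lower into 1291 and 1888, quantile normalization gave 1904 and 2091, and removal of the trend with gene length gave 1933 and 1709. Under both of the latter 3 of the 10 genes were called, H2-K1, H2-D1 and B2m, all lower, with medians of -0.96 and -0.94 over the 10, while Nlrc5 lost its call and Tap1 was at -0.59 and -0.61. Of all genes 12.1% were lower and 11% higher under quantile normalization, and 9.89% and 11.2% with the length trend removed. The 4 calls rest on every WT ovary: without any 1 of the 3, 0 of the 10 genes passed, with 4 or 5 lower at an unadjusted P under 0.05, and 1158 to 1195 of all genes were called lower. The fold changes of the 4 changed little in those fits, with H2-K1 between -2.66 and -2.43, H2-D1 between -2.31 and -2.03, B2m between -2.02 and -1.88 and Nlrc5 between -1.58 and -1.26. Without MP1, MP3, MP6 or MP7 2 genes passed, where 2066 to 2103 of the 17277 genes were called lower. Without the library labelled MP tumor 10 4 passed, where 2968 of all genes were called lower. In that last fit the log2 fold changes were -2.69 for H2-K1, -2.30 for H2-D1, -2.04 for B2m and -1.48 for Nlrc5.

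**Figure D1:**
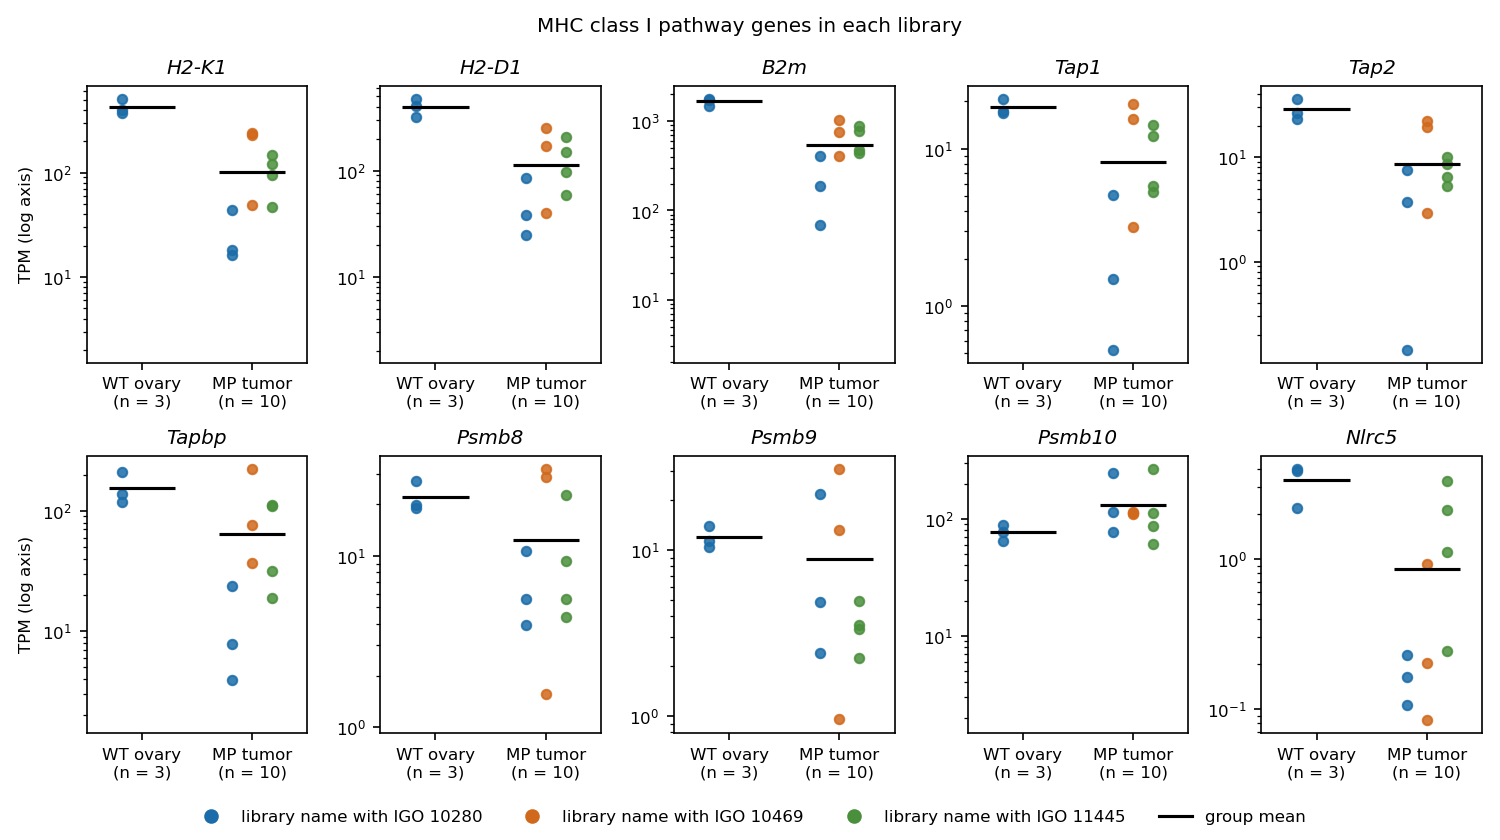
TPM (log axis) of each of the 10 genes in the 3 WT ovaries and 10 MP tumors, with 1 point per library coloured by the IGO number in its name and a bar at the group mean. H2-K1, H2-D1, B2m and Tap2 have every MP tumor below every WT ovary, and Psmb10 has 7 MP tumors above every WT ovary.

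Both classical heavy chains, which hold the peptide and meet the T cell receptor, fell. H2-K1 was at 394, 375 and 512 TPM in WT ovaries and between 16.4 and 239 TPM, with a median of 72.6 TPM, in MP tumors. Every MP tumor lay below every WT ovary, with MP2 and MP3 lowest and MP4 and MP5 highest. Its log2 fold change was -2.57 ± 0.73 (SE, limma adjusted P = 0.0255). H2-D1 was at 477, 321 and 402 TPM in WT ovaries and between 24.9 and 253 TPM, with a median of 91.5 TPM, in MP tumors. The groups did not overlap here either, with MP2 lowest and MP5 highest, and the log2 fold change was -2.16 ± 0.62 (SE, limma adjusted P = 0.0267). Adjusted P values without 1 WT ovary lay between 0.0878 and 0.121 for H2-K1 and between 0.0797 and 0.128 for H2-D1, while each passed without any 1 MP tumor. Of the 76-base windows of their transcripts, 2.96% for H2-K1 and 5.40% for H2-D1 occur also in other genes, most often in H2-Q10 and H2-Q1, so a small part of their reads may have been split.

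B2m, the invariant light chain without which heavy chains stay inside the cell, fell as well. It was at 1792, 1476 and 1749 TPM in WT ovaries and between 68.0 and 1043 TPM, with a median of 458 TPM, in MP tumors. Every MP tumor again lay below every WT ovary, with MP2 lowest and MP5 highest. The log2 fold change was -1.93 ± 0.63 (SE, limma adjusted P = 0.048). This call is close to the threshold: adjusted P was between 0.133 and 0.167 without 1 WT ovary, and B2m passed in 5 of the 10 fits that left out 1 MP tumor. It was also lost with a pseudocount of 0.1 (adjusted P = 0.0582), with no filter (0.0695) and with limma without trend and robust variance (0.0548). None of the B2m windows occur in another gene.

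The share of tested genes for which every MP tumor lay below every WT ovary was 16.4%. Among the 10 class I genes it was 4, namely H2-K1, H2-D1, B2m and Tap2, and 7 genes had at least 9 MP tumors below every WT ovary, as did 30.3% of tested genes.

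Nlrc5, the transactivator of class I genes, was at 3.97, 3.86 and 2.17 TPM in WT ovaries and between 0.0836 and 3.32 TPM, with a median of 0.236 TPM, in MP tumors. MP9 at 3.32 TPM stood above WT ovary 3, and MP10 at 2.12 TPM was just below it, while the other 8 MP tumors were at 1.12 TPM or less. The log2 fold change was -1.37 ± 0.43 (SE, limma adjusted P = 0.04). Counts were small, with 2 to 75 reads per MP tumor against 302 to 501 per WT ovary. The call was lost under quantile normalization (-0.67, adjusted P = 0.105) and with the length trend removed (-0.39, adjusted P = 0.444). The pseudocount of 1 shrinks the change of such a low gene: with 0.1 the log2 fold change was -2.56 with an adjusted P of 0.0769. Adjusted P was between 0.0829 and 0.168 without 1 WT ovary, and Nlrc5 passed in 4 of the 10 fits that left out 1 MP tumor.

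The genes that bring peptides to class I molecules had negative fold changes that did not pass the test. Tap2 was at 22.99, 26.6 and 36.5 TPM in WT ovaries and between 0.143 and 22.4 TPM, with a median of 7.05 TPM, in MP tumors. Its groups did not overlap, though MP5 at 22.4 TPM nearly reached WT ovary 1, and the log2 fold change was -1.999 ± 0.71 (SE, limma adjusted P = 0.0641). Tap1, which encodes the partner subunit of the same pump, was at 17.2, 16.8 and 20.8 TPM in WT ovaries and between 0.526 and 19.2 TPM, with a median of 5.54 TPM, in MP tumors. MP5 lay within the range of the WT ovaries and the other 9 MP tumors below it, with a log2 fold change of -1.46 ± 0.70 (SE, limma adjusted P = 0.157). Tapbp was at 137, 119 and 211 TPM in WT ovaries and between 3.93 and 223 TPM, with a median of 34.4 TPM, in MP tumors. MP5 was above every WT ovary and the other 9 MP tumors below, with a log2 fold change of -2.01 ± 0.91 (SE, limma adjusted P = 0.139). Reads of Tapbp may be the least certain, since 18.4% of its 76-base windows occur, on either strand, also in other genes. Most lie in Gm19412, which overlaps Tapbp exons on the opposite strand, so those reads are ambiguous only if counting ignored the strand. The share of shared windows was 8.14% for Tap2 and 2.38% for Tap1.

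Of the 3 immunoproteasome subunits, Psmb10 differed from Psmb8 and Psmb9 in direction, and none passed the test. These subunits replace Psmb5, Psmb6 and Psmb7 in new proteasomes under interferon and change which peptides are cut. Psmb8 was at 19.6, 18.9 and 27.1 TPM in WT ovaries and between 1.56 and 32.0 TPM, with a median of 7.49 TPM, in MP tumors. MP4 and MP5 were above every WT ovary, MP10 was among them and 7 MP tumors were below, with a log2 fold change of -1.20 ± 0.69 (SE, limma adjusted P = 0.233). Psmb9 was at 10.5, 11.4 and 14.1 TPM in WT ovaries and between 0.971 and 30.8 TPM, with a median of 4.22 TPM, in MP tumors. MP1 and MP4 were above every WT ovary, MP5 was among them and 7 MP tumors were below, with a log2 fold change of -0.97 ± 0.73 (SE, limma adjusted P = 0.358), and under quantile normalization the value was 0.020. Psmb10 was at 77.9, 65.0 and 89.1 TPM in WT ovaries and between 61.1 and 267 TPM, with a median of 113 TPM, in MP tumors. MP1 at 249.7 TPM and MP7 at 267 TPM stood far above the WT ovaries, 7 MP tumors in all were above every WT ovary and only MP9 was below, with a log2 fold change of 0.61 ± 0.41 (SE, limma adjusted P = 0.299). Under median-of-ratios scaling the Psmb10 value was 1.33 with an adjusted P of 0.121, the same direction with a larger size. Psmb10 shares no 76-base window with another gene, Psmb9 shares 3.41% of its windows with Tap1 and Psmb8 shares 9.90% with Gm20496. Tap1 and Gm20496 overlap these genes on the opposite strand, so those reads too are ambiguous only if counting ignored the strand.

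The reads were also tested directly with limma voom on counts worked back from TPM and length, and 7 of the 10 genes were then called lower and 0 higher. Over all genes 23.4% were called lower and 10.9% higher by that test. The added genes were Tap1, Tap2 and Tapbp, with adjusted P values of 0.0439, 0.028 and 0.0319.

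All WT ovaries share IGO_10280 with MP1 to MP3, so the comparison was repeated inside that number. There 8 of the 10 genes were lower in MP tumors and 0 higher, against 57.3% lower and 6.44% higher among all genes. The genes that did not pass were Psmb9 (log2 fold change -0.75) and Psmb10 (0.76). H2-K1 was at -4.11 and Tapbp at -3.89, against a median of -1.19 over all genes in the same fit. For MP4 to MP10 the IGO number and the group cannot be told apart.

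**Figure D2:**
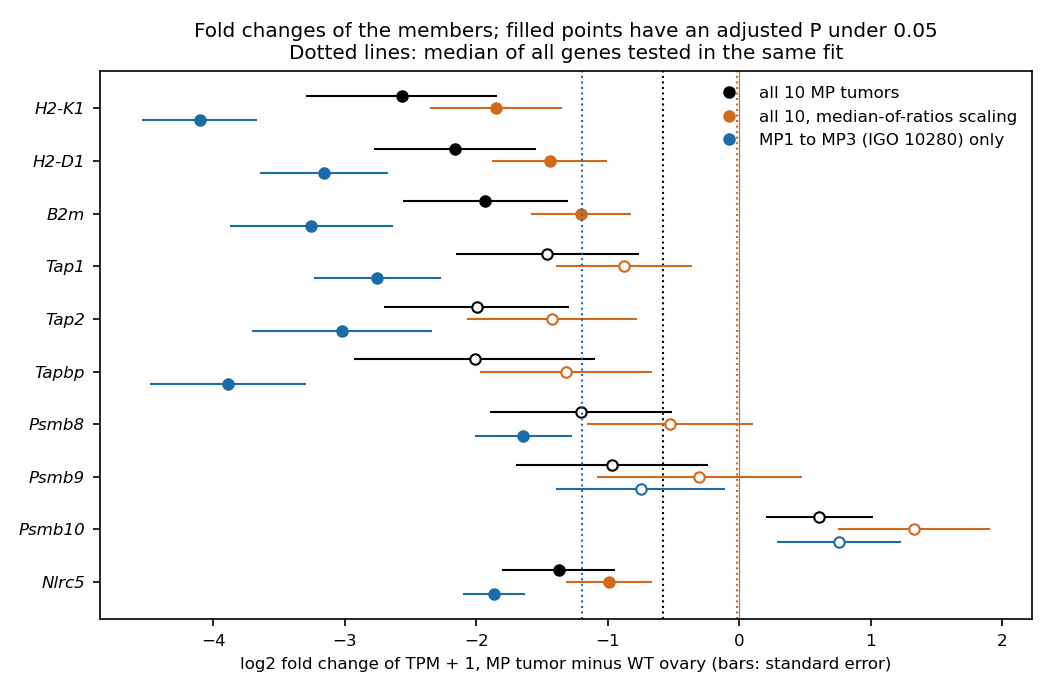
Log2 fold change of TPM + 1, MP tumor minus WT ovary, of each gene with its standard error, for all 10 MP tumors, for the same libraries after median-of-ratios scaling, and for MP1 to MP3 against the 3 WT ovaries. Filled points passed the test, dotted lines mark the median of all genes in each fit, and Psmb10 is the gene to the right of 0 in each of the 3.

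A ratio of a pair of genes within a library does not depend on the scaling of that library, apart from the pseudocount of 1, which pulls ratios of low genes such as Psmb8, Psmb9, Tap1 and Tap2 toward 0. On log2(TPM + 1), 6 such ratios were compared by an exact permutation test over libraries, whose smallest possible P here is 0.0035. None passed, with this pseudocount or with 0.1. For the heavy chains against B2m, the log2 ratio H2-K1/B2m was -1.98 ± 0.21 in WT ovaries and -2.61 ± 0.57 in MP tumors (SD), a difference of -0.64 with exact two-sided P = 0.0944 and 0.235 after adjustment over the 6, and 7 of 10 MP tumors were below every WT ovary. The H2-D1/B2m difference was -0.23 (exact permutation P = 0.434, adjusted 0.434). Neither result shows that heavy chains and B2m moved alike, since the tumors spread widely around their mean.

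Against the constitutive subunit that it replaces, Psmb8 had a log2 ratio to Psmb5 of -2.85 ± 0.39 in WT ovaries and -4.32 ± 1.58 in MP tumors (SD). The difference was -1.47 (exact permutation P = 0.164, adjusted 0.235), with 7 MP tumors below and 2 above every WT ovary. The Psmb9/Psmb6 difference was -1.22 (exact permutation P = 0.15, adjusted 0.235), with 7 below and 1 above. The Psmb10/Psmb7 difference had the other sign, 0.48 (exact permutation P = 0.15, adjusted 0.235), with 6 above and 0 below. For the transporter the Tap1/Tap2 difference was 0.54 (exact permutation P = 0.196, adjusted 0.235), with 7 MP tumors above and 1 below every WT ovary. The spread of the MP tumors in the ratios of Psmb8 and Psmb9 was several times that of the WT ovaries.

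**Figure D3:**
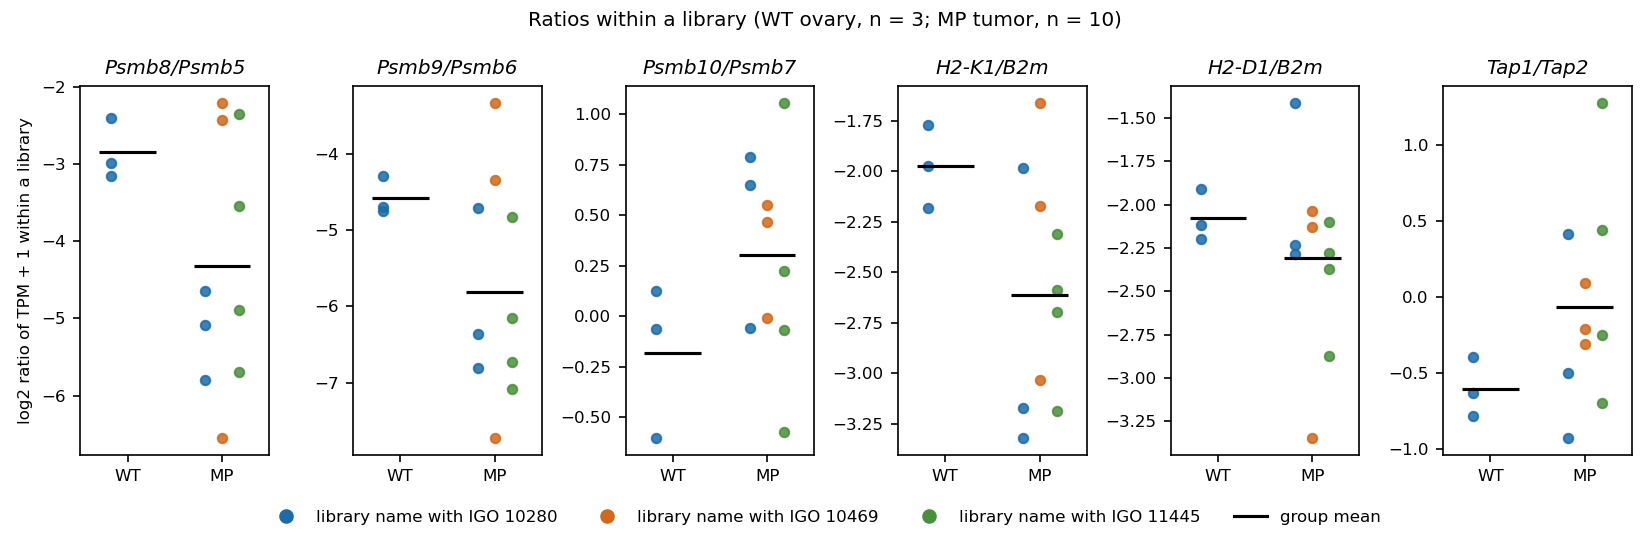
Log2 ratio of TPM + 1 of a pair of genes within a library, for 6 ratios, in the 3 WT ovaries and 10 MP tumors, with 1 point per library coloured by IGO number and a bar at the group mean. Mean ratios of Psmb8 to Psmb5 and of Psmb9 to Psmb6 are lower in MP tumors by 1.47 and 1.22 with a wide spread, and no ratio passed the test.

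The 10 MP tumors differed widely among themselves. Ranked by the mean of the 10 genes on the log2 scale, each gene centred on its mean over MP tumors, MP5 was highest at 1.32 and MP4 next at 1.07. MP2 was lowest at -1.74, MP3 was at -0.97 and MP6 at -0.77. In MP2 10 genes took 55.1% of TPM, which lowers the TPM of all others, and after median-of-ratios scaling MP6 was lowest at -0.99, MP2 was at -0.63 and MP3 at -0.25, with MP4 highest at 1.06 and MP5 at 0.79. On TPM MP2 had the lowest level of 6 genes and MP6 that of 3, namely Psmb8, Psmb9 and Nlrc5. MP5 had the highest level of 5 genes. MP4 and MP6 carry the same IGO number and stood at ranks 2 and 8 of 10 on TPM and 1 and 10 after scaling.

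Many pairs of the genes varied together from tumor to tumor, beside a high correlation among genes at large. Of the 45 pairs among the 10 genes, 19 passed at an adjusted permutation P of 0.05 by Pearson r over 10 MP tumors, all with positive r, and 14 by Spearman rho. The median r was 0.64, and it was 0.59 when the 2 tumors farthest from the median of the first gene were left out, 0.71 after centring within IGO number and 0.44 after median-of-ratios scaling. All values of a library share its depth and scaling, and the median r of single members with all 17277 tested genes ran from -0.11 for Psmb10 to 0.58 for Tapbp. For H2-K1 and H2-D1 that background was 0.53 and 0.52, and for B2m and Tap1 0.57 and 0.55. The lowest r among the 19 pairs was 0.76, so the 42.2% of member pairs that reached it are those 19 by construction. On average over the 10 members 12.4% of tested genes reached it, from 0.762% for Psmb9 to 26.9% for Tapbp. The share was 19.5% for H2-K1 and 26.5% for B2m, which were in 6 and 5 of the 19 pairs. It was 1.14% for Psmb10, so the average understates the background of the genes that form most of these pairs. After median-of-ratios scaling the median r with all tested genes lay between -0.06 for Psmb10 and 0.05 for Tapbp. Nlrc5 and Psmb10 were in none of the 19 pairs and Psmb9 in 1.

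Tap1 had the highest r with both heavy chains and B2m on the TPM scale, an order that changed with the scaling. The r of Tap1 was 0.97 with H2-D1 (rho 0.95), 0.96 with H2-K1 (rho 0.93) and 0.96 with B2m (rho 0.94), each with a permutation adjusted P of 0.0045 or less for r and for rho. After median-of-ratios scaling these r values were 0.81, 0.86 and 0.97, and H2-D1 then had a higher r with Psmb8 (0.90) and with H2-K1 (0.83) than with Tap1. H2-K1 and H2-D1 had an r of 0.94 (rho 0.92) with a permutation adjusted P of 0.0009 for r, and 0.97 within IGO number, where H2-K1 had 0.94 with Psmb8 and 0.92 with Tap1. Psmb8 and Psmb9 had an r of 0.77 (rho 0.84, permutation adjusted P = 0.025 for r and 0.015 for rho). Leaving out the 2 farthest tumors gave 0.94, 0.91 and 0.96 for the 3 pairs with Tap1, 0.89 for H2-K1 with H2-D1 and 0.56 for Psmb8 with Psmb9.

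Psmb10 did not vary with the other genes in this way. None of its 9 pairs passed, 3 of the 9 had a positive r and the median was -0.12, whereas 35 of the 36 pairs without Psmb10 were positive with a median of 0.76. On TPM the median r of Psmb10 with all tested genes was -0.11, much as with the class I genes, while that of the other 9 ran from 0.02 for Psmb9 to 0.58 for Tapbp. After median-of-ratios scaling the median r of Psmb10 was -0.32 with the class I genes and -0.06 with all tested genes. The median over its 9 pairs was -0.43 without the 2 farthest tumors and -0.02 after centring within IGO number. Its most negative value was with Nlrc5, an r of -0.54 and a rho of -0.20 (permutation adjusted P = 0.152 and 0.656). Nlrc5 itself had an r of 0.54 with H2-K1, 0.64 with H2-D1 and 0.57 with B2m (permutation adjusted P = 0.162, 0.088 and 0.137), none of which passed. Its median r with all tested genes was 0.47. With the same 3 genes its r was 0.20, 0.32 and 0.20 after median-of-ratios scaling, and 0.61, 0.65 and 0.50 after centring within IGO number.

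**Figure D4:**
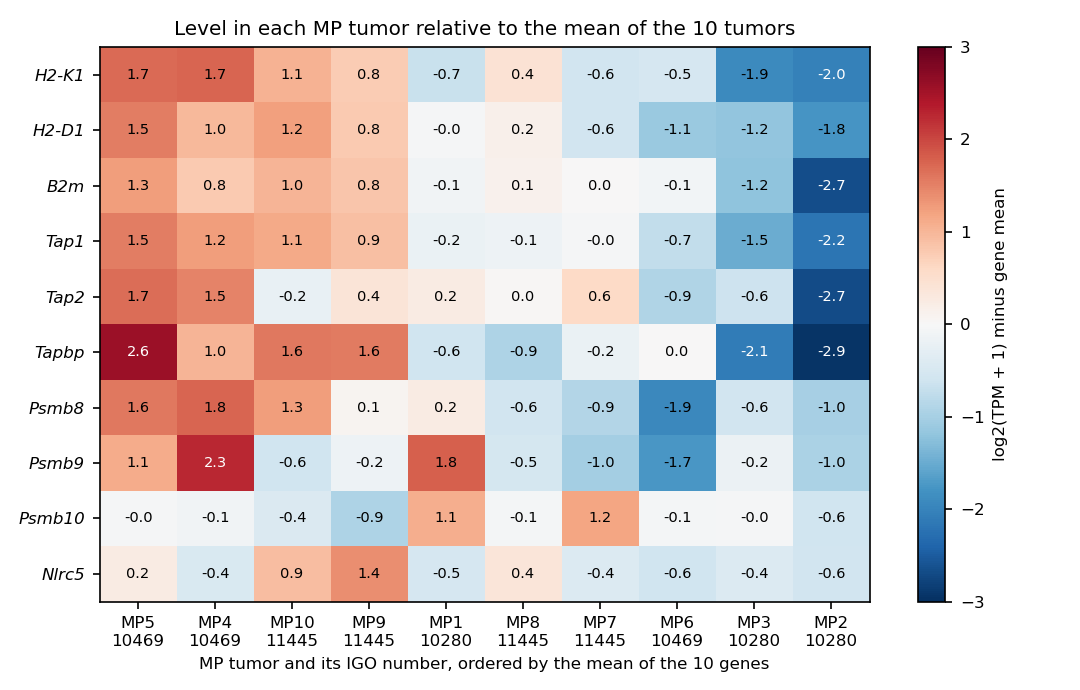
Log2(TPM + 1) of each gene in each MP tumor minus the mean of the gene over the 10 tumors, with tumors ordered by the mean of the 10 genes and the IGO number under each name. MP5 and MP4 are the highest columns and MP2 the lowest, and Psmb10 is the row that follows the others least, with MP1 and MP7 as its highest tumors.

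Within MP tumors the 3 libraries with IGO_10280 were compared with the other 7. Lower values were called for H2-K1 (log2 fold change -2.20), B2m (-1.89), Tap1 (-1.85) and Tapbp (-2.68), which is 4 of the 10 genes and 0 higher, where 30.1% of all genes were called lower and 1.29% higher with a median of -0.84. Without MP2 none of the 10 passed, with 3 lower at an unadjusted limma P under 0.05. After median-of-ratios scaling none was called lower and Psmb10 was called higher at 1.55, where 14.1% of all genes were higher and 9.69% lower. B2m alone was called lower under quantile normalization, where 8.1% of all genes were lower and 9.56% higher, and after removal of the length trend, where 8.3% were lower and 9.28% higher. Each of these counts, 1 of 10, is near the share over all genes.

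The genes whose pattern over the 10 MP tumors was most like the mean of the 10 class I genes, among 15039 candidates with a mean of at least 1 TPM, were Narf, Stap2, Sgce, Lgals3bp, Wnt5b, Tmem19, Smim24, B4galt1, Vill and Leng9. Their Pearson r with that mean ran from 0.94 for Leng9 to 0.96 for Narf, and the median r over all tested genes was 0.50. Lgals3bp, a secreted glycoprotein that binds galectins, was between 136 and 214 TPM in WT ovaries and between 1.71 and 70.0 TPM, with a median of 22.3 TPM, in MP tumors.

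Genes of the same family outside the 10 were mostly called lower, relative to 14.3% of all genes. Of 16 other class I and class I-like genes 14 were tested, 10 fell, 0 rose and 4 did not pass, with a median log2 fold change of -1.98. H2-T23, the nonclassical molecule that shows leader peptides to NK cell receptors, fell by 3.14 on the log2 scale (SE 0.77, limma adjusted P = 0.012), from 64.7, 76.3 and 151 TPM in WT ovaries to between 0.984 and 48.4 TPM. Mr1, which presents microbial vitamin metabolites to MAIT cells, fell by 2.79 (SE 0.59, limma adjusted P = 0.00497), from 29.2, 26.7 and 40.2 TPM to between 1.19 and 10.3 TPM. Neither overlapped between the groups, and every MP tumor lay below every WT ovary for 16.4% of all tested genes. The count was 5 without WT ovary 1, 5 without WT ovary 2 and 4 without WT ovary 3, where 1158, 1195 and 1185 of 17277 genes were called lower. It was 8 after median-of-ratios scaling, beside 10.9% of all genes.

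Genes of peptide loading and trimming load and shape the peptide before the complex leaves for the surface. Of 13 tested, 3 fell, 0 rose and 10 did not pass, with a median log2 fold change of -0.85, beside 14.3% of all genes called lower and a median of -0.58. Erap1, which trims peptides inside the endoplasmic reticulum, fell by 1.88 on the log2 scale (SE 0.54, limma adjusted P = 0.0282), and the chaperone Hsp90b1 fell by 1.35 (SE 0.39, limma adjusted P = 0.027). The other gene called, named after its values were seen, was Pdia3, which works with tapasin. Median-of-ratios scaling left 1 lower and made 2 higher, beside 10.9% lower and 7.47% higher over all genes, and leaving out any WT ovary left 0.

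The proteasome genes outside the 10 did not change by the test. Of 8 tested, 0 fell and 0 rose by limma, with a median log2 fold change of 0.17. At an unadjusted P under 0.05, 0 were lower and 1 higher, and voom also called 0 lower and 1 higher. The constitutive catalytic subunits Psmb5, Psmb6 and Psmb7 had log2 fold changes of 0.26 ± 0.39, 0.25 ± 0.36 and 0.13 ± 0.34 (SE), with adjusted P values of 0.646, 0.631 and 0.809. Psma7, a structural subunit named here after its values were seen, was between 185 and 219 TPM in WT ovaries and between 272.5 and 1621 TPM in MP tumors, all 10 above every WT ovary, with a log2 fold change of 1.33 ± 0.45 (SE, limma adjusted P = 0.0553). Every MP tumor was above every WT ovary for 3.02% of all genes.

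Of 25 genes of interferon input and class I transcription, 23 were tested, 5 fell, 0 rose and 18 did not pass, with a median log2 fold change of -1.23, beside 14.3% of all genes called lower. Jak1, a kinase of the interferon receptors, fell by 3.11 on the log2 scale (SE 0.77, limma adjusted P = 0.0123), from 259, 341 and 228 TPM in WT ovaries to between 4.85 and 171 TPM in MP tumors. Stat2, a transcription factor of the type I interferon response, fell by 2.30 (SE 0.59, limma adjusted P = 0.0158). Irf1, an interferon-induced activator of class I promoters, had a log2 fold change of -1.64 ± 0.63 (SE, limma adjusted P = 0.0863), and Rfx5, a subunit of the factor on the X box, had -0.72 ± 0.81 (SE, limma adjusted P = 0.538), with 6 MP tumors below and 3 above every WT ovary. Leaving out any WT ovary left 0 genes called, and median-of-ratios scaling left 3 of the 23, near the 10.9% of all genes called lower. Ifng and Ifnb1 did not pass the filter on low values.

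Class II genes, which sit in the same region of chromosome 17, had a wide spread among MP tumors. Of 9 genes 8 were tested, 1 fell and 7 did not pass, with a median log2 fold change of -1.70. The gene called was H2-Oa, which modulates class II peptide loading, at 1.21 to 1.98 TPM in WT ovaries and 0 to 4 reads per MP tumor. H2-Oa passed the filter on low values only through the WT ovaries, so a lower level in MP tumors was fixed by the filter and nothing is read from its call. The summed TPM of the 9 was 1048 to 1401 in WT ovaries and 22.97 to 2796 in MP tumors, so the groups overlapped.

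The 22 other genes with the spaced X2 and Y pair in their promoter were compared as a description. Of the 16 tested, 3 were called lower and 0 higher, and 12 had a negative log2 fold change, with a median of -0.997. Over all tested genes 14.3% were called lower and 69.9% had a negative log2 fold change, so these counts are near the background. The genes called, named after their values were seen, were Nfe2l1 (-2.91), Trim26 (-2.41) and Cdnf (-1.20). The class I-like gene H2-M3, also named after its values were seen, is among the 16, with -1.80 and an adjusted P of 0.0935.

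**Figure D5:**
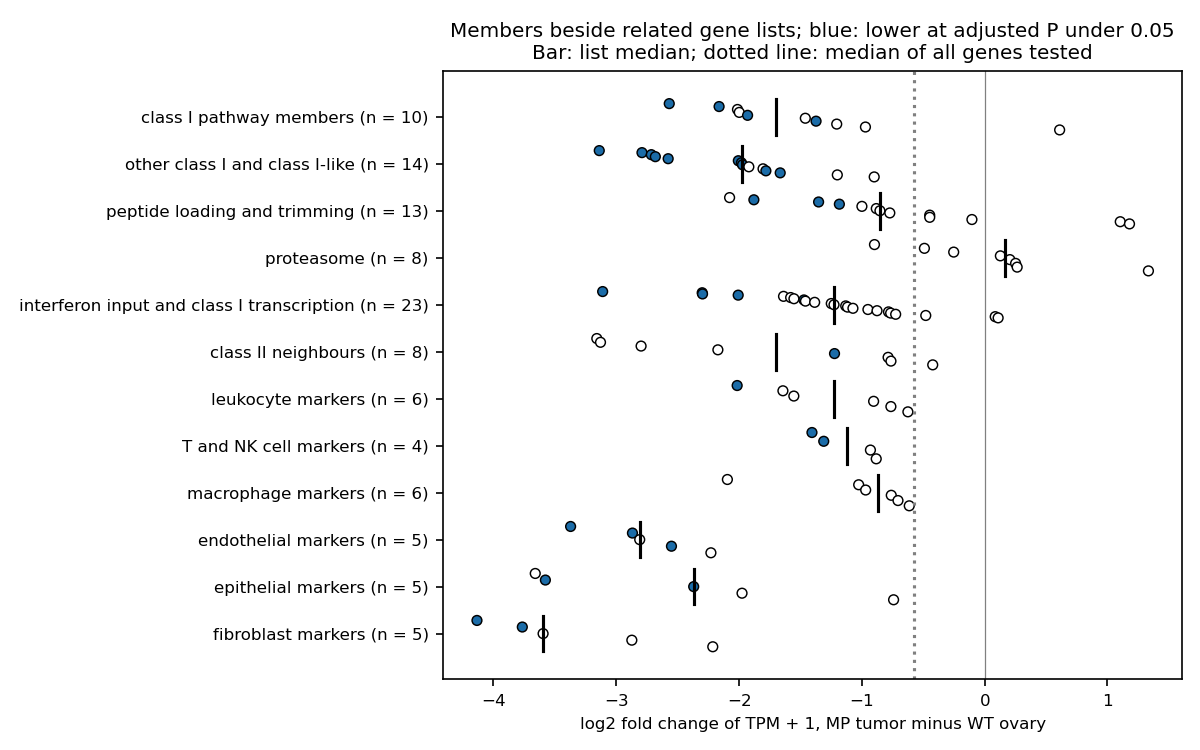
Log2 fold change of TPM + 1, MP tumor minus WT ovary, of each tested gene in the 10 class I genes, related gene lists and cell type markers, with blue points for genes called lower, white for genes not called, a bar at the list median and a dotted line at the median of all genes. Class I-like genes have a median of -1.98 and proteasome genes one of 0.17.

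Cells other than tumor cells also carry class I molecules, and markers of several such types were measured. In bulk RNA fewer cells of a type and less RNA per cell cannot be told apart. Beside the counts below, 14.3% of all tested genes were called lower, 10.9% after median-of-ratios scaling and 23.4% by voom. Without 1 WT ovary 1158 to 1195 of 17277 genes were called lower. Summed leukocyte markers were 141 to 281 TPM in WT ovaries and 44.2 to 197 TPM in MP tumors, with 1 of 6, Cd52, called lower, and 0 after median-of-ratios scaling, without WT ovary 1 or without WT ovary 3. Ptprc, the pan-leukocyte CD45, had a log2 fold change of -0.90 ± 0.36 (SE, limma adjusted P = 0.092). Summed T and NK cell markers were 7.61 to 13.6 TPM in WT ovaries and 0.282 to 5.57 TPM in MP tumors, with 2 of the 4 tested, Cd3g and Nkg7, called lower and 5 of 6 at 0 in at least 1 MP tumor. Of those calls 1 was left without WT ovary 1, without WT ovary 3 or after median-of-ratios scaling. Genes this low in MP tumors can pass the filter on low values through the 3 WT ovaries alone, so nothing is read from these calls. Summed macrophage markers were 592 to 866 TPM in WT ovaries and 199 to 874 TPM in MP tumors, with 0 of 6 called by limma, 3 lower at an unadjusted P under 0.05 and 1 by voom. Summed endothelial markers were 269 to 283 TPM in WT ovaries and 6.04 to 189 TPM in MP tumors, with 3 of 5 called lower, among them Tek and Kdr, and 2 without any 1 WT ovary.

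Markers of the ovary's own hormone-producing cells were far lower in MP tumors. Here too the background was 14.3% of all tested genes called lower, and 10.9% after median-of-ratios scaling. It was 1158 to 1195 of 17277 genes without 1 WT ovary and 2403 without MP2. All 6 steroidogenic and granulosa markers fell, Cyp11a1 and Hsd3b1 furthest, with 4 left without any 1 WT ovary, and their summed TPM was 27958 to 32873 in WT ovaries and 10.2 to 2197 in MP tumors. Of 5 epithelial markers 2 fell, Epcam and Krt7, and the sum of the 5 was 227 to 257 TPM in WT ovaries and 5.49 to 1150 TPM in MP tumors, with 1 called without any 1 WT ovary, without MP2 or after median-of-ratios scaling. Of 5 fibroblast markers 2 fell, Pdgfra and Lum, and their sum was 948 to 1651 TPM in WT ovaries and 32.0 to 3369 TPM in MP tumors, with 0 called without any 1 WT ovary and 1 without MP2 or after median-of-ratios scaling.

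MP5, the tumor with the highest class I mean, also had the highest summed leukocyte (197 TPM), macrophage (874 TPM), T and NK cell (5.57 TPM) and endothelial (189 TPM) markers among MP tumors. Over the 10 MP tumors the r between the summed leukocyte markers and a member had a median of 0.53 over the 10 members, with 0 passing, 0.03 without the 2 farthest tumors and 0.06 after median-of-ratios scaling. For macrophage markers these were 0.51, -0.0021 and -0.06, with 0 passing, and for T and NK cell markers 0.41, 0.75 and 0.03, with 0 passing. For endothelial markers the median r was 0.73, with 2 of 10 passing by r, B2m and Tapbp, 0 by rho, 0.50 without the 2 farthest tumors and 0.40 after that scaling. The part of these cells in the lower class I levels was not tested.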

How the data were processed

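PolyA RNA of 3 WT ovaries and 10 MP tumors was sequenced as 76-base single-end reads. The authors deposited one table of TPM per gene and library. The submitters' processing notes name FastQC 0.11.5, Trimmomatic 0.36, STAR 2.5.3a, featureCounts 1.6.3 and mm10/GRCm38. A label names a human build, HTSeq and RPKM instead, while the table holds mouse genes and TPM. The deposited column of gene lengths served to work reads back from TPM, and 100.0% of values came out whole within 0.001 of a read. All 13 columns matched a sample's description.

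Genes with at least 1 TPM in at least 3 libraries were tested on log2(TPM + 1) with limma 3.58.1 (trend and robust variance) in R 4.3.3, with Benjamini-Hochberg adjustment at 0.05. Ratios were compared by two-sided exact permutation, and correlations by 100000 resamples adjusted over 45 pairs (member pairs) or over all marker relations together, in scipy 1.17.1. Tested on simulated data for this comparison, the fit over 17277 genes recovered 148 of 200 that had been shifted by 3 on the log2 scale, with 8 false calls. The simulated noise was independent between genes and had the same SD in both groups, unlike these libraries. The shift was larger than the change of any of the 10 members with all libraries, so these rates need not hold for them. Named genes were the 10 members, Psmb5, Psmb6, Psmb7, Irf1, Rfx5, Ptprc, up to 2 with the largest change per list and direction among those called, and the 10 most alike in pattern. The few others are marked as named after their values were seen. A further gene under this rule is not reported here. Members and lists were chosen with earlier results of these data known. Alternatives were other pseudocounts, no filter, other scalings, removal of the length trend, subsets by IGO number, IGO number as a covariate, a replicate block, limma without trend, voom, and leaving out each library. Depth limits low values most: a single read per kilobase of gene corresponded to 0.0513 to 0.790 TPM.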

Additional observations from a re-analysis of the deposited data

How the results depend on the processing

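The count of class I genes called lower was 4 with all libraries and 0 to 5 when 1 library was left out, always with 0 higher. It was 2 with a pseudocount of 0.1 and 5 with a pseudocount of 5, where 1752 and 3019 of the 17277 genes were called lower. With no filter it was 2, beside 3631 of 32961 genes lower. With limma without trend and robust variance it was 3, beside 2527 of 17277 genes lower. It was 8 with IGO_10280 libraries only, 7 with IGO number as a covariate and 7 with voom. Over all genes, 433 higher became 1291 with median-of-ratios scaling, 1904 with quantile normalization, 1933 with the length trend removed, 1112 with IGO_10280 libraries only, 894 with the covariate and 1879 with voom, and 94 to 635 when 1 library was left out. The 2463 lower became 9902 with IGO_10280 libraries only, 8534 with the covariate and 4042 with voom, and 1158 to 3264 when 1 library was left out. Replicate numbers 1 to 3 are shared by WT and MP labels but came with no statement of pairing, and deviations of same-numbered samples correlated between -0.0963 and 0.00118. With the replicate block 8 class I genes were lower, as many as without it in the same 6 libraries, and over all genes 1095 were higher and 9838 lower. The cause of these shifts was not tested.

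Directions held for 9 of the 10 class I genes under every alternative to the MP against WT fit, and Psmb9 reversed to 0.020 under quantile normalization. In the comparison of IGO_10280 with other MP tumors the count of 4 genes called became 1 with median-of-ratios scaling (Psmb10, higher, with all 4 calls lost), 1 with quantile normalization and 1 with the length trend removed (B2m in both), and 0 to 5 when 1 tumor was left out. There Psmb8 reversed to 0.57, 0.68 and 0.24 under those 3 settings and Nlrc5 to 0.76 with the length trend removed. Without MP1, Psmb9 reversed to -0.46 and Psmb10 to -0.25, in ranges of -0.46 to 0.90 and -0.25 to 0.59 over the tumors left out. The H2-D1/B2m ratio reversed to 0.10 with IGO_10280 libraries only and to 0.10 in the replicate block, and with so few libraries neither exact test can pass the threshold. Leaving out 1 library moved no ratio across 0. The median pairwise r stayed between 0.59 and 0.66 when 1 tumor was left out. Of 16 sets of values searched for a sample far from the rest, 0 held one.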
